A study of Mus musculus with 24 samples.

Results

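Long stretches of H3K4me3 that were listed in 1 condition only and that lay against H3K4me3 shared by both conditions were examined in leukemic splenocytes of Eµ-TCL1A mice, with KDM1A intact or knocked down. The deposited lists sort regions into those listed for knockdown cells (KD regions), for wild-type cells (WT regions) and for both (common regions). Common regions all scored under 3 and the others over 3, and KD and WT regions can overlap common ones. A KD or WT region is thus not shown to lack the mark in the other condition. A KD or WT region was taken as a long stretch if it lay on autosomes 1 to 14 or 16 to 19, was at least 1000 bp long and touched or overlapped a common region, with a gap of at most 1 bp. This choice found 1062 stretches, 707 KD and 355 WT, among 18103 KD and WT regions on these 18 autosomes and among 63425 regions in the 3 lists as a whole. For comparison, 22.4% of all listed regions on these autosomes were KD regions and 8.58% were WT regions. The members were chosen by their list, their length and their contact, all read from the same comparison, so their number, length and score are given as a description.

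In the Eµ-TCL1A model the TCL1A oncogene is driven in B cells by an immunoglobulin enhancer, and the mice come down with a leukemia like human chronic lymphocytic leukemia. All cells were splenocytes of leukemic mice on the C57BL/6 strain. The wild-type group received no treatment and the other group carried a KDM1A knockdown, whose method is not given in the labels. In each condition 3 biological replicates were sequenced in 2 technical replicates, which gave 6 libraries from the immunoprecipitation and 6 from its input, 24 libraries in all. The level of Kdm1a and the identity of the cells as B cells could not be checked, since the lists hold neither expression values nor gene names.

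Trimethylation of H3K4 marks the nucleosomes around active gene starts and is laid down by SET1 and MLL (KMT2) enzyme complexes. At most active promoters the mark forms a compact peak, while at some highly transcribed genes and genes of cell identity it spreads over several kilobases into the gene body. KDM1A (LSD1) demethylates the mono- and dimethylated forms of H3K4, does not act on the trimethylated form, and works in corepressor complexes with RCOR1 and histone deacetylases. As the lists have it, a long stretch is sequence listed for 1 condition that continues from, lies between or surrounds sequence listed for both. Genes at the stretches are not named, because the gene table at hand is of another genome build.

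The lists hold 1 score per region and no value per library. Variation among the 3 replicates of a condition is therefore unknown for every difference below, no test over samples could be made, and the depth behind a region is unknown. Shares are given with 95% Wilson intervals and medians with 95% intervals from exact binomial ranks. These intervals reflect counting error alone, as if each region were independent, although neighbouring stretches can belong to 1 locus. The number of autosomes that show a difference is given beside them.

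The longest stretches show the arrangement most plainly. The longest KD stretch, chr7:126737043-126746291 on GRCm39, ran for 9249 bp with a score of 9.59. It touched a single common region of 596 bp at its left end and overlapped it by 186 bp, so the stretch was 15.5 times as long as the common region. The next KD stretch, chr8:123395268-123402913, ran for 7646 bp and ended on the right in a common region of 4067 bp. A KD stretch of 6897 bp at chr9:121735133-121742029 began in a common region of 1582 bp. Within the 1-bp limit of contact, all 3 met shared H3K4me3 on 1 side only. To the left of the second, another KD region ended 117 bp away and itself overlapped a common region.

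Both the fourth and the fifth longest KD stretches lay on chromosome 16. The one nearer the start of the chromosome, chr16:49627944-49633927, measured 5984 bp, scored 17.5 and left a common region of 4125 bp. The other, chr16:49773925-49780803, measured 6879 bp, scored 9.68 and abutted a common region of 311 bp without overlap, so the stretch was 22.1 times as long as the common region. The remaining 5 of the 10 longest KD stretches measured 5165 to 5915 bp. They lay at chr5:142408003-142413917, chr2:28506660-28512186, chr12:80169701-80175116, chr3:14952044-14957236 and chr14:54666906-54672070. In all 10 the common sequence lay beyond 1 end only, and each was longer than the common sequence it touched.

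The 10 longest WT stretches were shorter, from 3472 to 5832 bp. The longest, chr7:24265392-24271223, had a score of 14.7 and abutted a common region of 796 bp on its left. The second, chr18:80706442-80711510, ran for 5069 bp between common regions at both ends, which together measured 892 bp. The third, chr4:150076249-150081025, ran for 4777 bp into a common region of 327 bp on its right. The others lay at chr7:106240420-106244987, chr3:148692558-148696840, chr2:178184326-178188309, chr13:92265488-92269192, chr9:7759031-7762707, chr1:21145656-21149161 and chr10:118702624-118706095. Of these 10, 7 had common sequence beyond 1 end and 3 beyond both. In 9 of the 10 the WT stretch was longer than the common sequence it touched, and the exception, on chromosome 9, measured 3677 bp beside 6120 bp.

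**Figure D1:**
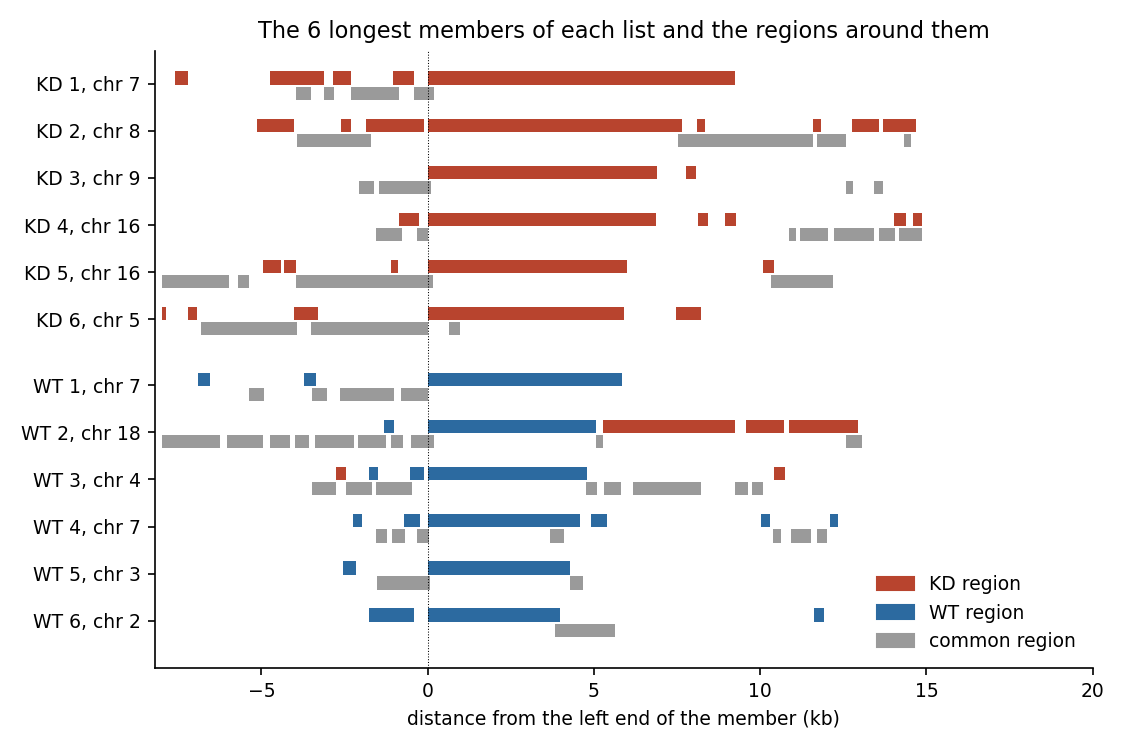
The 6 longest KD and the 6 longest WT stretches, 1 per line with its chromosome, drawn to scale in kb from the left end of the stretch, with KD regions in red, WT regions in blue (both upper track) and common regions in grey (lower track) up to 8 kb on either side. Within the 1-bp limit of contact, the KD stretches leave shared H3K4me3 on 1 side. The touched region measures 311 bp in the fourth line and 4125 bp in the fifth. The second WT stretch lies between common regions and is followed at 216 bp by a KD region.

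KD stretches were somewhat longer than WT stretches, mostly through their upper tail. The median length was 1451 bp (interval 1397 to 1505 bp, quartiles 1184 and 1950 bp) for KD and 1341 bp (1292 to 1379 bp, quartiles 1149.5 and 1755 bp) for WT stretches. The KD median was the higher on 12 of 18 autosomes. At least 2000 bp were reached by 166 KD stretches (23.5%, 20.5 to 26.7%) and by 59 WT stretches (16.6%, 13.1 to 20.8%). At least 3000 bp were reached by 59 KD (8.35%, 6.52 to 10.6%) and 15 WT stretches (4.23%, 2.58 to 6.85%), and at least 5000 bp by 12 KD and 2 WT stretches. The KD share of the stretches was accordingly 66.6% (63.7 to 69.3%) in all, 73.8% (67.7 to 79.1%) from 2000 bp and 79.7% (69.2 to 87.3%) from 3000 bp. For comparison, 72.3% (71.6 to 72.9%) of all KD and WT regions were KD, which lies inside the intervals from 2000 and from 3000 bp. Long regions without contact were KD in 58.8% (55.5 to 62.1%). Length was a criterion of the choice, and these values describe the members.

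**Figure D2:**
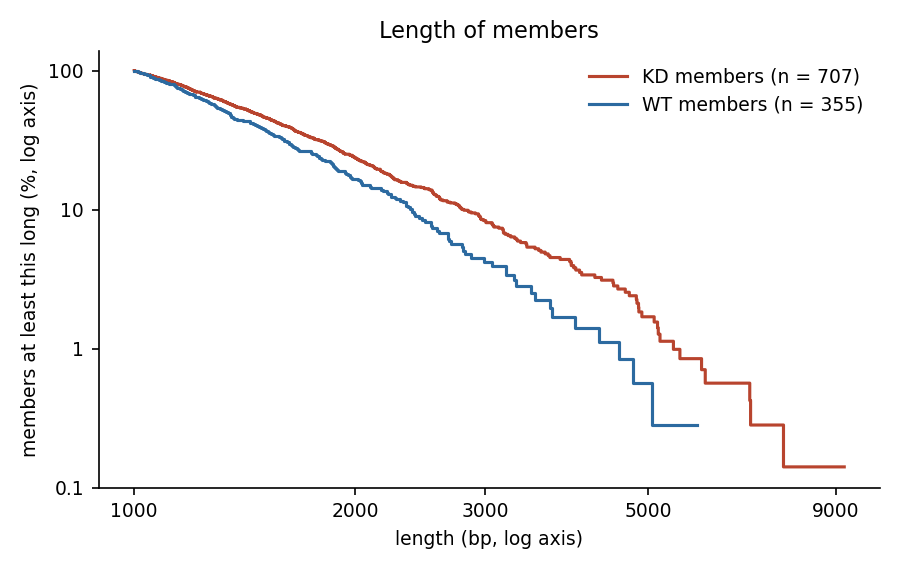
Share of KD (red, n = 707) and WT (blue, n = 355) stretches that are at least as long as the value on the x axis, in percent, with both axes logarithmic. The curves start together at 1000 bp and separate with length, to 8.35% against 4.23% at 3000 bp, and end at 9249 and 5832 bp.

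Together the KD stretches spanned 1.25 Mb and the WT stretches 0.559 Mb. They were few in number, 5.40% of KD and 7.08% of WT regions on these autosomes, but made up 18.5% and 18.01% of the length of their lists. The regions on either side of the length minimum were as follows. There were 50 KD stretches of 1000 to 1049 bp with a median score of 5.22 and 72 KD regions in contact of 950 to 999 bp with a median score of 4.88. For WT the numbers were 27 stretches with a median score of 5.88 and 45 regions with one of 6.33. The median common length touched just inside and just outside the minimum was 1068.5 and 1091.5 bp for KD and 1084 and 1536 bp for WT. Common sequence lay beyond both ends of 18 of the 50 and 37 of the 72 KD regions, and of 17 of the 27 and 31 of the 45 WT regions.

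Among regions in contact with shared H3K4me3, long stretches were about equally common in both lists. They were 10.2% (9.48 to 10.9%) of 6951 KD regions in contact and 10.5% (9.47 to 11.5%) of 3394 WT regions in contact, with KD the higher on 8 autosomes and the lower on 10. This near equality held only at the length and score minimums used: the share was 2.39% for KD and 1.74% for WT at a length minimum of 2000 bp, and 29.3% and 16.4% among regions scoring at least 5. Regions without contact differed more. There the long share was 8.25% (7.58 to 8.96%) for KD and 21.8% (19.9 to 23.9%) for WT regions, lower for KD on 18 of 18 autosomes. Seen from the other side, long KD regions were in contact in 58.3% (55.5 to 61.03%) and short KD regions in 52.6% (51.7 to 53.5%). Long WT regions were in contact in 50.1% (46.4 to 53.7%) and short WT regions in 70.6% (69.2 to 71.9%).

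The scores of the stretches lay below those of long regions without contact. The median was 5.92 (quartiles 4.99 and 7.37) for KD and 6.75 (5.27 and 9.57) for WT stretches, against 9.27 and 10.4 for long KD and WT regions without contact. In the KD stretches the score was higher at greater length, from a median of 5.38 at 1000 to 1499 bp to 7.37 at 2000 bp or more, with Spearman's rho 0.44 across 707 stretches. In the WT stretches these medians were 6.16 and 8.27, and rho was 0.17 across 355 stretches. Each score and length comes from the same region of the same comparison.

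The side on which shared H3K4me3 lay was not part of the choice, and here the lists differed. Common sequence extended beyond both ends of 221 KD stretches (31.3%, 28.0 to 34.8%) and of 170 WT stretches (47.9%, 42.7 to 53.1%). It extended beyond 1 end of 454 KD (64.2%, 60.6 to 67.7%) and 174 WT stretches (49.01%, 43.9 to 54.2%). The share with common sequence beyond both ends was lower for KD on 16 of 18 autosomes. In terms of stretches, 72.3% (68.7 to 75.6%) of those open at 1 end were KD, against 56.5% (51.6 to 61.3%) of those enclosed at both ends.

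The same order was present among shorter regions in contact, of which 57.4% (56.2 to 58.7%) of KD and 76.4% (74.9 to 77.9%) of WT regions had common sequence beyond both ends. Long stretches of both lists were thus enclosed less often than short ones. Common sequence beyond both ends can also belong to a single common region that holds the whole of the other. Within a single common region lay 1061 of 6244 shorter KD and 356 of 3039 shorter WT regions in contact. Among the stretches these were 1 of 707 KD and 0 of 355 WT. How much this adds to the contrast by length was not computed. Within the stretches too, enclosure was lower at greater length, from 33.9% to 29.8% to 26.5% of KD stretches at 1000 to 1499, 1500 to 1999 and 2000 bp or more, and from 53.2% to 46.1% to 30.5% of WT stretches. In the longest class the intervals overlapped (20.4 to 33.7% for KD, 20.3 to 43.1% for WT), and a difference was not detectable with 166 and 59 stretches. By score the order was widest at the top. Among stretches scoring 8 or more, 11 of 129 KD (8.53%, 4.83 to 14.6%) and 65 of 124 WT stretches (52.4%, 43.7 to 61.0%) were enclosed. At scores of 5 to 8 the shares were 33.2% (28.8 to 38.0%) and 43.3% (35.9 to 50.9%). At scores of 3 to 5 the shares were 42.9% (36.0 to 50.2%) and 50.7% (39.1 to 62.3%). In both lower classes the intervals of KD and WT overlapped.

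**Figure D3:**
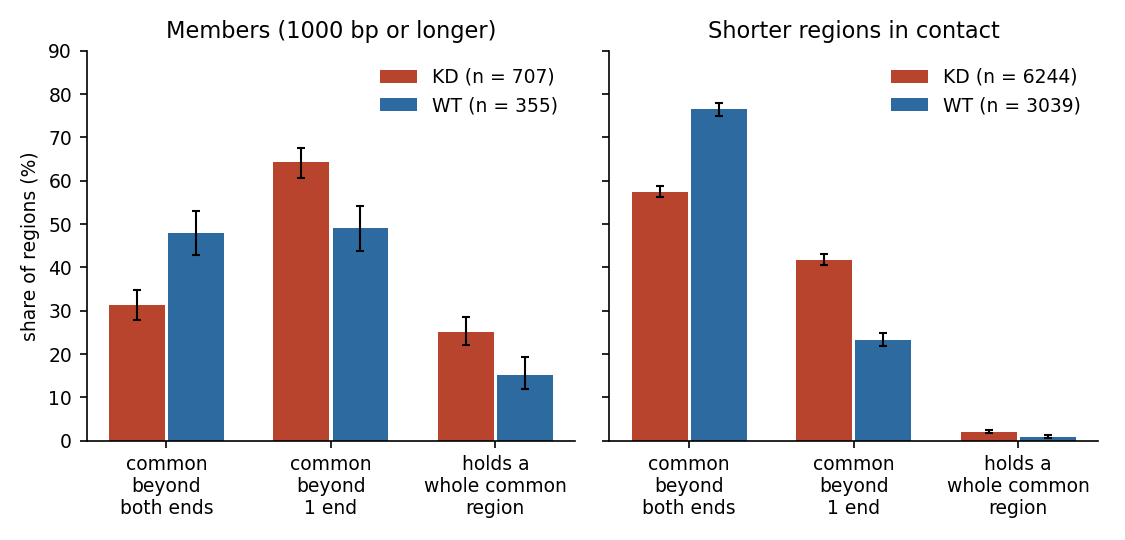
Share of regions, in percent, with common sequence beyond both ends, beyond 1 end, or with a whole common region inside, for stretches of at least 1000 bp (left) and shorter regions in contact (right), KD in red and WT in blue, with 95% Wilson intervals as error bars. Among the long stretches 31.3% of KD and 47.9% of WT are enclosed, and 25.2% and 15.2% hold a whole common region.

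Some stretches spanned entire common regions. A whole common region lay inside 178 KD stretches (25.2%, 22.1 to 28.5%) and 54 WT stretches (15.2%, 11.8 to 19.3%), with the KD share higher on 12 autosomes and lower on 5. At scores of 3 to 5 the shares were 44.6% (37.6 to 51.8%) for KD and 38.8% (28.0 to 50.8%) for WT. At 5 to 8 the shares were 22.1% (18.3 to 26.4%) and 15.2% (10.5 to 21.5%). At 8 or more the shares were 6.98% (3.71 to 12.7%) and 2.42% (0.826 to 6.87%). Within each class of score the intervals of KD and WT overlapped. The common regions held in this way were small, 193 in KD stretches with a median of 279 bp and 55 in WT stretches with a median of 299 bp. A common region held whole cannot be longer than its stretch, which favours small ones. In 32 KD and 11 WT stretches all contact was with held common regions, 1 in each except for 2 of the KD stretches, and no common sequence lay beyond either end. A KD stretch of 2613 bp at chr17:73229202-73231814 touched 6 common regions and held 4 of them whole, the highest number of any stretch. The WT stretches that touched the most common regions, 3, included one of 2599 bp at chr14:34222513-34225111. These last 2 were picked after their values were seen, as was the count of whole regions held.

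Most contacts were overlaps rather than abutments. Only 77 KD (10.9%) and 35 WT stretches (9.86%) met common regions without sharing a base. The median overlap was 151 bp (128 to 175 bp) for KD and 108 bp (78 to 130 bp) for WT stretches, or 9.36% and 6.63% of the length of the stretch. KD and WT regions themselves had 0 overlaps with each other. In each list neighbouring regions lay at least 101 bp apart. Outside common regions the stretches measured a median of 1267 bp (1223 to 1329 bp) for KD and 1196 bp (1143 to 1259 bp) for WT.

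The choice required contact with a common region but set no amount of common sequence, which was summed over the touched regions. Its median was 1118 bp (1007 to 1292 bp, quartiles 538 and 2400 bp) for KD and 923 bp (787 to 1065 bp, quartiles 465 and 1918 bp) for WT stretches. The KD median was the higher on 15 of 18 autosomes, although the pooled intervals overlapped. The difference lay in stretches open at 1 end, which touched a median of 849.5 bp (737 to 948 bp) in KD and 521 bp (449 to 568 bp) in WT. Stretches enclosed at both ends touched 2086 bp (1797 to 2419 bp) and 1875 bp (1497 to 2073 bp). With the length of the stretch the lists moved apart. At 1000 to 1499 bp the medians were 1053 bp (908 to 1257 bp) for KD and 1012 bp (817 to 1323 bp) for WT stretches. At 2000 bp or more they were 1420.5 bp (1082 to 1604 bp) for KD and 740 bp (567 to 949 bp) for WT. With a length minimum of 500 bp the order turned, to 1241 bp for KD and 1610 bp for WT regions.

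**Figure D4:**
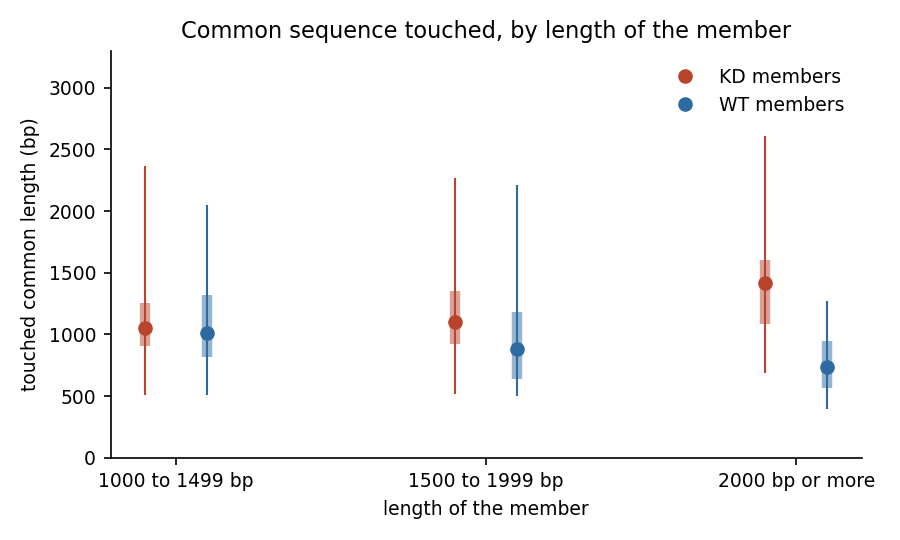
Summed length in bp of the common regions touched by KD (red) and WT (blue) stretches, in 3 classes of stretch length, with the median as a point, its 95% interval as a thick bar and the quartiles as a thin line. The medians lie side by side at 1000 to 1499 bp (1053 and 1012 bp) and apart at 2000 bp or more (1420.5 and 740 bp).

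In most stretches the sequence outside common regions was longer than the common sequence touched. This was so for 57.0% (53.3 to 60.6%) of KD and 60.8% (55.7 to 65.8%) of WT stretches. With the overlapping bases counted into the stretch it was so for 62.1% (58.5 to 65.6%) and 64.5% (59.4 to 69.3%). The length minimum itself favours such stretches. Other stretches lay within much larger shared domains. A KD stretch of 5153 bp at chr4:134959845-134964997 lay between common regions that together with a small one inside it measured 14580 bp. A WT stretch of 1016 bp at chr2:118732244-118733259 lay between common regions of 11751 bp in all. These were picked as the stretches of each list with the most common sequence touched, after the values were seen. Across stretches, length and touched length were hardly related, with Spearman's rho 0.05 in 707 KD and -0.13 in 355 WT stretches, given as a description.

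The touched common regions were themselves shorter and higher in score than common regions at large, which had medians of 873 bp and 0.507. The touched regions were chosen for contact with stretches scoring over 3 in the same comparison, so these values are given as a description. The 1050 distinct common regions touched by KD stretches had a median length of 592 bp and a median score of 1.64, and the 556 touched by WT stretches one of 567.5 bp and 1.28. Common regions touched by shorter KD or WT regions alone had medians of 1178 bp and 0.836. Common regions touched by neither had medians of 765 bp and 0.403. The score of a common region has no sign and does not say which condition was higher. Of the 40376 common regions on these autosomes, a single one was touched by both a KD and a WT stretch. Whether this number is low for sets of this size was not tested.

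KD stretches outnumbered WT stretches on 17 of 18 autosomes. Their pooled share of 66.6% was close to the KD share of all regions in contact, 67.2% (66.3 to 68.1%), and below that of all KD and WT regions, 72.3% (71.6 to 72.9%), so the KD majority is not particular to the stretches. Chromosome 2 was the exception, with 32 KD and 36 WT stretches, a KD share of 47.1% (35.7 to 58.8%). Its number of KD stretches per 100 common regions, 1.00, was the lowest of all, and its number of WT stretches, 1.13, was within the range of the others. The highest KD shares were 83.3% (70.4 to 91.3%) on chromosome 19, with 40 KD and 8 WT stretches, and 81.5% (72.4 to 88.1%) on chromosome 11, with 75 and 17. These chromosomes had the fewest WT stretches per 100 common regions, 0.483 and 0.494, against a median of 0.909 over the autosomes. Chromosome 12 had a KD share of 56.5% (42.2 to 69.8%). Autosomes held 31 to 96 stretches each. The interval of the KD share included the pooled 66.6% on 15 of 18 autosomes, the exceptions being chromosomes 2, 11 and 19. Among regions in contact, the long share for KD and WT was 9.41% and 11.01% on chromosome 2. It was 10.16% and 7.56% on chromosome 11, and 10.58% and 8.25% on chromosome 19. The KD share of all regions in contact was not computed per autosome. These exceptions are thus not shown to be particular to the stretches. Chromosome 15, left out by the rule, had 149 KD and 6 WT regions that met the other criteria. They were 13.3% of 1121 KD and 8.45% of 71 WT regions in contact there, so the KD majority was present among all regions in contact.

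**Figure D5:**
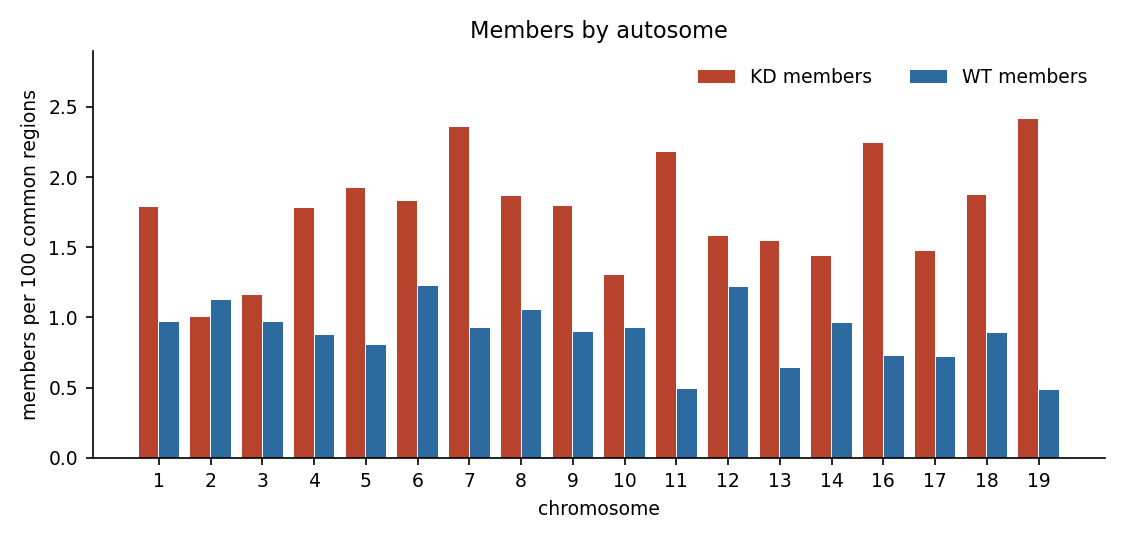
Number of KD (red) and WT (blue) stretches per 100 common regions on each of the 18 autosomes used. KD exceeds WT on every autosome shown except chromosome 2, where the values are 1.00 and 1.13, and the gap is widest on chromosome 19, with 2.42 and 0.483.

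Other regions of the same list often lay nearby, more so for KD than for WT stretches. Another KD region lay within 10 kb of 87.1% (84.5 to 89.4%) of KD stretches, and another WT region within 10 kb of 57.5% (52.3 to 62.5%) of WT stretches. For shorter regions in contact these shares were 74.98% and 35.6%. KD regions are the more numerous on these autosomes, 13088 against 5015, and this was not adjusted for. A region of the opposite list lay within 10 kb of 8.49% (6.65 to 10.8%) of KD and 9.01% (6.46 to 12.4%) of WT stretches. For shorter regions in contact this was 11.6% (10.8 to 12.4%) of KD and 22.8% (21.4 to 24.4%) of WT regions.

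Joining stretches of either list that lay within 100 kb of each other gave 178 groups of 2 or more and 616 single stretches. Of the groups, 122 held KD stretches alone, 34 held WT stretches alone and 22 held both. The groups of 5 or more, described after their values were seen, numbered 6, of which 3 held KD stretches alone and 3 also held 1 WT stretch. On chromosome 10, 7 KD and no WT stretches of 1024 to 2912 bp lay between positions 81011308 and 81245351. On chromosome 7, 6 KD stretches lay between 126619201 and 126746291, covering 16763 bp and ending with the longest of all. On chromosome 11, 5 KD stretches lay within 31.9 kb between 96177021 and 96208930, the longest of 4717 bp. Of the groups with both lists, the one on chromosome 12 held 5 KD stretches and 1 WT stretch between 33194237 and 33368604, and the one on chromosome 8 held 4 KD stretches and 1 WT stretch between 88999416 and 89037584. Among smaller groups, 4 WT stretches of 1155 to 1779 bp lay within 10.1 kb of chromosome 2, between 20964003 and 20974079.

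The third mixed group lay on chromosome 18, where opposite stretches met. Between positions 80678133 and 80726880, 5 KD stretches and 1 WT stretch lay within 48.7 kb and covered 18294 bp. The WT stretch was the second longest of its list, with 5069 bp and a score of 11.3. The KD stretch chr18:80711727-80715689, of 3963 bp and with a score of 15.3, began 216 bp after its end. A further KD stretch of 4906 bp lay on the other side, at chr18:80680329-80685234. The common region between the first 2, of 216 bp, was the one touched by a KD and a WT stretch alike.

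In neither list did the highest score belong to the longest stretch. The highest KD score, 54.9, belonged to a stretch of 2115 bp at chr12:113393389-113395503, toward the distal end of the chromosome that carries the immunoglobulin heavy-chain genes, which rearrange in B cells. Whether the stretch lies among these genes was not examined. It abutted a common region of 992 bp, and a WT region lay 694 bp away. The next KD scores were 34.8, for 3576 bp at chr1:172104995-172108570 beside a common region of 220 bp, and 23.6, for the 5527-bp stretch on chromosome 2 named above. The highest WT score, 49.5, belonged to a stretch of 1846 bp at chr12:92853713-92855558 beside 1136 bp of common sequence. The next WT stretches measured 1029 bp at chr6:134543192-134544220 (score 33.6) and 1663 bp at chr2:20972417-20974079 (score 28.7). Both lay between common regions, and the latter belonged to the group of 4 on chromosome 2. All 3 of these KD stretches were open at 1 end, as was 1 of the 3 WT stretches.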

How the data were processed

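The data are 3 deposited lists of H3K4me3 regions from ChIP-seq of 24 libraries. The genome build was GRCm39, and MACS2 2.2.6, SAMtools 1.6 and Bowtie2 2.2.9 are named, per the submitters' processing notes. How regions were called, scaled and pooled over replicates is not given in the sources used here. Each region has 1 deposited score, for both conditions compared as a whole, which is not defined in the file headers. Common regions all scored under 3, and KD and WT regions over 3. No read count or depth is attached to a region.

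Lengths, contacts, overlaps and gaps were computed with scipy 1.17.1, numpy 2.4.6 and pandas 2.3.3 under Python 3.11.15, and matplotlib 3.10.9 served for plotting. The code was tested on 2100 simulated regions and recovered 100% of the relations built in. Touched length is the summed full length of the common regions in contact. Coordinates are 1-based. The stretches named are the 10 longest and the 3 highest in score of each list, and others are said to have been picked later. The members and lists were chosen with earlier results of these data known. Gene starts and preset gene lists, planned for an annotation of the same build, were not analysed here, since the RefSeq tables used are for GRCm38.p6. Alternatives were other length and score minimums, a wider gap, chromosome 15 included, joined regions, the longest touched region alone, and each autosome left out.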

Additional observations from a re-analysis of the deposited data

How the results depend on the processing

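Of 114 alternative values, 57 stayed inside the interval of the reported value or, for the count of autosomes, within 1.5 times of it. KD stretches were longer, less often enclosed at both ends and more often in possession of a whole common region than WT stretches in 7 of 7 settings, and WT regions without contact were more often long in 7 of 7. The order of the touched common length held in 7 of 8, and that of the long share of regions in contact in 2 of 7. The count of whole common regions held and the long share without contact were chosen after seeing the data. Values below are for KD, then WT. A changed length or score minimum changes by construction which regions enter, and for other shifts the cause was not tested.

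With a length minimum of 500 bp the KD share was 63.5%, the long share 31.5% and 37.1% in contact and 24.5% and 45.7% without contact, the median length 780 and 747.5 bp, the share enclosed at both ends 42.5% and 65.5%, and the share holding a whole common region 13.2% and 6.28%. The touched common length reversed its order there, with 1241 bp for KD and 1610 bp for WT. With 2000 bp these were 73.8%, 2.39% and 1.74%, 2.13% and 6.23%, 2622 and 2485 bp, 26.5% and 30.5%, and 31.3% and 22.03%, with 1420.5 and 740 bp touched. With a score of at least 5, the long share was 29.3% and 16.4% in contact and 16.5% and 35.3% without, the KD median length 1556 bp, the KD enclosed share 27.2%, and 18.4% and 9.72% held a whole common region. With stretches and regions below the median score of their own list's stretches removed, the long share was 40.8% and 16.5% in contact and 21.9% and 46.3% without, the KD median length 1714.5 bp, KD touched length 972 bp, KD enclosed share 20.1%, and 13.3% and 3.93% held a whole common region. Joining regions of a list within 1 kb, with gaps counted into the length, gave a KD share of 73.1%, long shares of 31.5% and 21.4% in contact and 15.5% and 27.9% without, lengths of 1781 and 1536.5 bp, touched lengths of 2063 and 1496.5 bp, a KD enclosed share of 23.6%, and 69.3% and 59.8% holding a whole common region. With chromosome 15 the KD share was 70.3%. Counting the longest touched common region alone gave 904 and 711 bp. Leaving out each autosome in turn gave KD shares of 65.2 to 67.9%.

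No paired analysis was possible because each list gives the conditions as a whole, without a column per replicate. Leaving out single replicates was not done for want of the same columns. Alternatives on gene starts were not run, as the gene table is for another build. The limits set by sequencing depth are unknown.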
